A study of Homo sapiens with 74 samples.

Results

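Platelets stick to damaged vessels, stick to each other and release stored proteins with a set of gene products that megakaryocytes, the platelet-forming cells of the bone marrow, make in bulk. Messenger RNA of 10 genes of this set was followed in human leukaemia cells depleted of DOT1L, the methyltransferase that acts on the globular domain of histone H3, or of ENL, a protein that binds acetylated histones and works with DOT1L (gene symbol MLLT1). The genes were chosen by symbol, for what their proteins do in platelets: ITGA2B, ITGB3, GP1BA, GP9, GP6, PF4, PPBP, VWF, PLEK and THBS1. All 10 were found among the 28131 genes that each of the RNA-seq count tables lists. K562 is a line from a chronic myeloid leukaemia in blast crisis, and HEL is an erythroleukaemia line with known megakaryocytic features.

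The K562 groups were wild-type control cells, DOT1L-/- cells (DOT1L KO) and ENL-/- cells (ENL KO), and the HEL groups were control cells and cells with DOT1L knockdown (KD). No other agent is named for any group. The labels do not say how the cells were edited or the knockdown was made, nor whether a knockout is 1 clone. The K562 and HEL groups were grown in different media, DMEM for K562 and RPMI with beta-mercaptoethanol for HEL. A total of 12 distinct libraries was used, with 2 K562 control, 3 DOT1L KO, 3 ENL KO, 2 HEL control and 2 KD libraries. The K562 control samples labelled replicates 2 and 3 held identical values and were counted as 1 sample. The labels do not say that replicates came from separate cultures, so p-values measure the spread between these libraries, which may be technical.

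The K562 libraries held 15404944 to 29236703 counts each and the HEL libraries 12151495 to 12811688. A count of 0 allows up to 3 counts, which were worth 0.103 to 0.247 CPM (counts relative to library size) before scaling and cover counting error only. All other CPM values were scaled between libraries with TMM factors. DOT1L itself fell in the K562 DOT1L KO by 0.53 on the log2 scale and in the HEL KD by 1.64, and MLLT1 fell in the ENL KO by 0.48 (edgeR adjusted p 4.09e-06, 2.22e-28 and 5.26e-06). The targeted transcripts were thus still counted in their knockouts, and each depleted library lay below each of its controls. Of 15 erythroid markers, all 15 had counts in both lines, in every group. Of 12 megakaryocyte markers other than the 10 genes, 6 were at 0 in both K562 control libraries, among them GP1BB, CLEC1B, TREML1, SELP and FLI1, and FLI1, an ETS factor of megakaryocytes, was at 0 in all 8 K562 libraries. In HEL only GP1BB of these 12 markers was at 0. The ENL KO labels name no sequencing lane while those of the K562 control and DOT1L KO do, so sequencing lane and ENL knockout cannot be told apart.

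In the platelet, integrin alphaIIb beta3 (ITGA2B and ITGB3) binds fibrinogen and ties platelets together. The glycoprotein Ib-IX complex (GP1BA and GP9 among its chains) catches von Willebrand factor (VWF) on the vessel wall, and glycoprotein VI (GP6) is the signalling receptor for collagen. Alpha granules store the chemokines PF4 and PPBP, VWF and thrombospondin 1 (THBS1), and pleckstrin (PLEK) is a main substrate of protein kinase C in activated platelets. GATA1, RUNX1 and ETS factors such as FLI1 are known to drive many of these genes in megakaryocytes.

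Promoters of 6 of the 10 genes matched the RefSeq table (GRCh38.p14). Those of ITGA2B, THBS1, GP9, PPBP and PLEK are printed because these genes moved in K562, in HEL or in both. Each runs 5′ to 3′ toward the gene and ends before the gene as placed in the deposited tables. Capitals mark the letters of 3 factor families named above, searched on both strands of the 250 bases before each RefSeq start. A GATA match was AGATAA with T allowed as its first letter and G as its last. An ETS match was AGGAAG with C allowed as its first letter. A RUNX match was TGTGGT. A match on the opposite strand shows as its reverse complement. The GP9 and PLEK runs are shorter because the gene starts earlier in the deposited tables than at the RefSeq start used for the promoter. The whole RefSeq span of GP9 begins earlier still, at 129054845, so the GP9 run lies inside that span.
ITGA2B (chr17:44389650-44389899, minus strand): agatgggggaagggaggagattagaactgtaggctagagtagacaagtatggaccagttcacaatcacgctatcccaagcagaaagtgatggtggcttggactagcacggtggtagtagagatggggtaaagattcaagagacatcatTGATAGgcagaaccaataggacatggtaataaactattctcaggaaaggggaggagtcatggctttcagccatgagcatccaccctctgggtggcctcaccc
THBS1 (chr15:39580829-39581078, plus strand): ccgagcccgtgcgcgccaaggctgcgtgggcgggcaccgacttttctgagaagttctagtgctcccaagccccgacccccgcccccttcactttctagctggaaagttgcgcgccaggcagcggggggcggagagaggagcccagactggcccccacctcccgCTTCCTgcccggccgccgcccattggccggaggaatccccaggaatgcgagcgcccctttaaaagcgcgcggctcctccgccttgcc
GP9 (chr3:129060529-129060766, plus strand): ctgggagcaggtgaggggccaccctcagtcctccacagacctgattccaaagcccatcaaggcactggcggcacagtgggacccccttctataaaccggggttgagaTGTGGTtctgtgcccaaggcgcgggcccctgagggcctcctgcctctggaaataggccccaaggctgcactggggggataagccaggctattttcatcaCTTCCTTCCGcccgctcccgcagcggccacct
PPBP (chr4:73988191-73988440, minus strand): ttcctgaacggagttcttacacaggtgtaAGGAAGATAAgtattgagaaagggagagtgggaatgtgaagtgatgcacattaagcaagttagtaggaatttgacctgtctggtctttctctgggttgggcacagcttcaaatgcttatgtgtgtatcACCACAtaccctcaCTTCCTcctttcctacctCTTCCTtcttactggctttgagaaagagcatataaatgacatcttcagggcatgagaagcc
PLEK (chr2:68365032-68365189, plus strand): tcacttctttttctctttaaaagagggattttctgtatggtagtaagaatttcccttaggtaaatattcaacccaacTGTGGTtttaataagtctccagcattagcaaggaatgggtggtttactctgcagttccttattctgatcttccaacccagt
ITGA2B held 1 GATA match and THBS1 1 ETS match on the opposite strand. GP9 held 2 ETS matches, overlapping each other, and 1 RUNX match. PPBP held all 3 kinds, its GATA match overlapping 1 of its 3 ETS matches, and PLEK held 1 RUNX match. The GP6 promoter held 1 GATA and 1 ETS match. Over all 35116 promoters of the table, 22.3% held a GATA, 40.8% an ETS and 11.0% a RUNX match in a window of the same length, so a single match is common. The matches describe the letters only.

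The lines differed in which of the genes had counts. K562 control libraries summed to 8.42 and 11.3 CPM over the 10 genes, and HEL control libraries to 4540 and 4545 CPM. More than 3 counts in every library were found for 5 of the 10 genes in the K562 control (ITGA2B, ITGB3, GP6, PLEK and THBS1) and for 9 of the 10 in the HEL control. GP1BA was at 0 in all 8 K562 libraries, while GP9 and PF4 had at most 1 count and PPBP at most 2. GP6 was the reverse, with 4 to 16 counts per K562 library and 0 in all 4 HEL libraries. It is listed on 10 sequences, and treatment of multi-mapping reads is not given, so its 0 cannot be read as absence. Fragments were counted for K562 and reads for HEL, in separate tables, so levels between the lines are set side by side without a test.

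Levels were compared between genes as CPM per kilobase of exonic length. In the HEL control the order was PLEK at 684 ± 11.7, ITGA2B at 376 ± 7.43, GP9 at 203 ± 16.8 and ITGB3 at 189 ± 0.872 CPM per kilobase (SD, n = 2 each). PLEK lay at percentile 99.6 of the 16520 genes with a count in this group, and ITGA2B, GP9 and ITGB3 lay at 99.2, 98.6 and 98.5. A second tier held GP1BA at 17.8 ± 1.46, PF4 at 17.5 ± 0.291, THBS1 at 17.0 ± 0.397 and PPBP at 8.86 ± 0.0891 CPM per kilobase (SD, n = 2 each). GP1BA and PF4 were not separated, since their libraries overlapped. VWF was last of those counted, at 0.0991 ± 0.0132 CPM per kilobase (SD, n = 2). In the K562 control ITGA2B stood highest, at 1.42 ± 0.413 CPM per kilobase (SD, n = 2), percentile 41.1 of 17992 genes with a count, ahead of ITGB3 at 0.767 ± 0.0905, PLEK at 0.107 ± 0.0336 and THBS1 at 0.0584 ± 0.0282 CPM per kilobase (SD, n = 2 each). THBS1 took the second place in the DOT1L KO, at 2.24 ± 0.226 CPM per kilobase, between ITGA2B at 7.25 ± 0.122 and ITGB3 at 1.85 ± 0.114 (SD, n = 3 each). In the ENL KO ITGB3 at 4.11 ± 0.400 and ITGA2B at 3.50 ± 0.628 CPM per kilobase (SD, n = 3 each) overlapped. GP6 is listed on 10 sequences, the main copy of chromosome 19 and alternates, and its summed length leaves its value per kilobase without meaning.

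**Figure D1:**
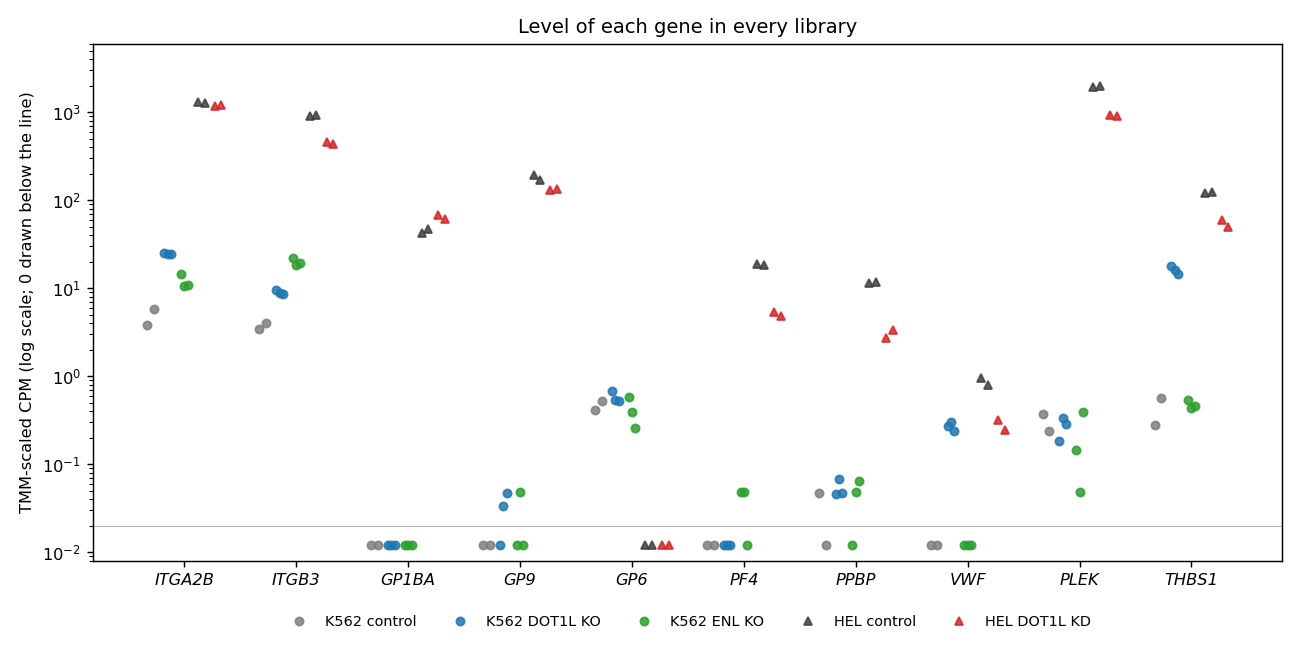
Level of each of the 10 genes in every library, in TMM-scaled CPM on a log axis; points below the grey line are libraries at 0, circles are K562 and triangles HEL libraries. HEL libraries sit above all K562 libraries for every gene except GP6, which has counts in K562 and none in HEL, and VWF, for which the HEL KD overlaps the K562 DOT1L KO.

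THBS1, ITGA2B and ITGB3 rose in the K562 DOT1L KO, and ITGB3 and ITGA2B rose in the ENL KO. In the HEL KD, PPBP, PF4, THBS1, PLEK, ITGB3, GP9 and, by little, ITGA2B fell, and GP1BA rose. With edgeR's quasi-likelihood test and Benjamini-Hochberg adjustment over all genes tested, 3 of 4 genes tested were past an adjusted p of 0.05 in the DOT1L KO, all 3 higher, against 51.1% of all 14301 genes tested (26.9% higher and 24.2% lower). In the ENL KO, 2 of 4 were past it, both higher, against 41.0% of all genes (18.8% higher and 22.2% lower). In HEL, 8 of 8 were past it, 1 higher and 7 lower, against 55.0% of all 12635 genes tested (27.0% higher and 28.0% lower). The median log2 fold change of the genes tested was 1.81, 0.74 and -1.06 in these comparisons, against 0.01, 0.00 and 0.01 over all genes tested. The K562 knockouts share their control libraries. In bulk RNA, more cells of a type and more RNA per cell cannot be told apart.

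**Figure D2:**
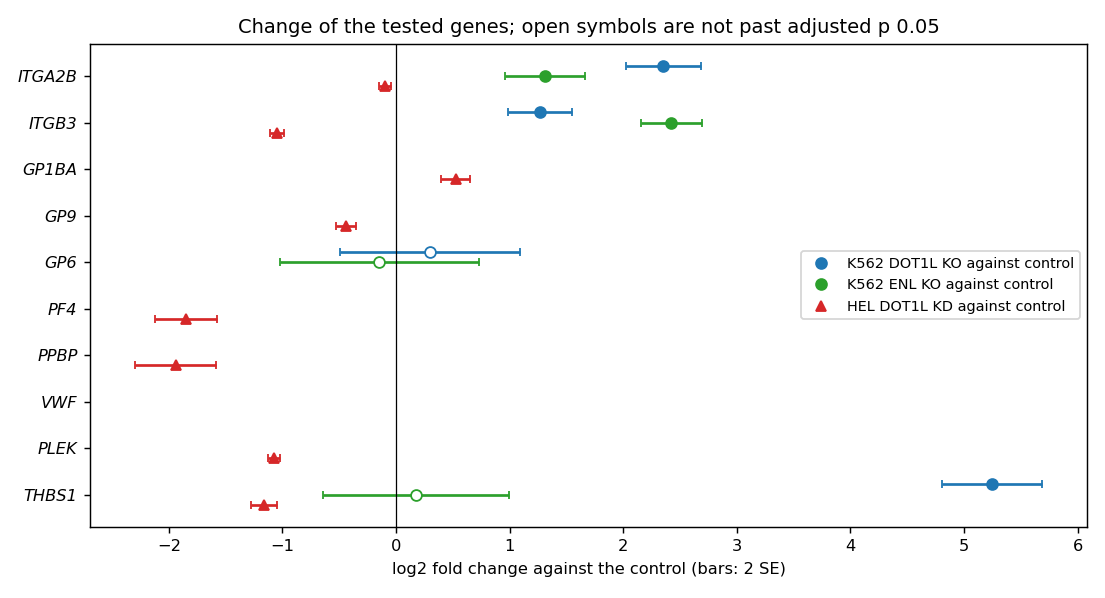
Log2 fold change against the control of each of the 10 genes that was tested, with bars of 2 SE; filled symbols are past an adjusted p of 0.05. ITGA2B, ITGB3 and THBS1 lie to the right of 0 in the K562 DOT1L KO and to the left in the HEL KD, and VWF, too low to be tested, has no symbol.

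ITGA2B (chromosome 17, 44372181 to 44389601, minus strand, GRCh38 here and for all genes) makes the alpha chain of the fibrinogen receptor. Its level was 3.86 and 5.86 CPM in the K562 control libraries, 25.3, 24.6 and 24.6 CPM in the DOT1L KO and 14.5, 10.7 and 10.8 CPM in the ENL KO. The groups did not overlap, and the DOT1L KO libraries were the highest. The mean was 5.11-fold higher in the DOT1L KO than in the control (log2 fold change 2.35, SE 0.165, edgeR adjusted p 6.09e-08) and 2.47-fold higher in the ENL KO (1.31, SE 0.175, edgeR adjusted p 4.61e-05). In HEL its level was 1306 and 1270 CPM in the control and 1185 and 1225 CPM in the KD. That small decrease (-0.10, SE 0.027, edgeR adjusted p 0.00239) was not past the threshold with upper-quartile factors (-0.02, edgeR adjusted p 0.512) nor without KD replicate 1 (-0.07, edgeR adjusted p 0.142).

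ITGB3 (chromosome 17, 47253842 to 47312711, plus strand) makes the beta chain, and lies 2864 kb from ITGA2B on the same chromosome. Its level was 3.44 and 4.07 CPM in the K562 control, 9.68, 8.85 and 8.61 CPM in the DOT1L KO and 22.3, 18.6 and 19.4 CPM in the ENL KO. Here the ENL KO libraries were the highest, and again no group overlapped another. ITGB3 was 2.41-fold higher in the DOT1L KO (log2 fold change 1.27, SE 0.140, edgeR adjusted p 5.26e-06) and 5.36-fold higher in the ENL KO (2.42, SE 0.134, edgeR adjusted p 9.96e-09). In HEL it fell from 921 and 927 CPM to 457 and 435 CPM, so that the control was 2.07-fold higher (-1.05, SE 0.030, edgeR adjusted p 2.51e-34). ITGB3 overlaps the antisense transcript THCAT158, which rose in the ENL KO as well (1.35, SE 0.501, edgeR adjusted p 0.0447). Whether strand was used in counting is not given in the sources used here, so reads of these overlapping genes cannot be told apart.

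The chains of the integrin therefore changed by different amounts. The ratio of ITGB3 to ITGA2B, each per kilobase, was 0.556 ± 0.0982 in the K562 control (SD, n = 2), 0.255 ± 0.0114 in the DOT1L KO (SD, n = 3) and 1.19 ± 0.0937 in the ENL KO (SD, n = 3). No library of a group reached the range of another. In HEL the ratio was 0.503 ± 0.0123 in the control and 0.260 ± 0.0152 in the KD (SD, n = 2 each), values close to those of the K562 control and DOT1L KO. The ratio was lower in both depleted groups, but by different routes, since in K562 both chains rose and ITGA2B rose more, and in HEL ITGB3 fell and ITGA2B hardly moved. An exact two-sided permutation test of the log2 ratio gave p = 0.2 for each K562 knockout against the control, 0.1 for DOT1L KO against ENL KO and 0.333 in HEL, each the smallest p that these group sizes allow. The direct test of the knockouts, which does not use the controls, showed the same split by gene: in the DOT1L KO, ITGA2B was higher (1.04, SE 0.128, edgeR adjusted p 9.62e-06) and ITGB3 lower (-1.15, SE 0.101, edgeR adjusted p 3.36e-07) than in the ENL KO. In that comparison 3 of the 4 genes tested were past the threshold, 2 higher and 1 lower, against 60.2% of all genes (31.8% higher and 28.3% lower).

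**Figure D3:**
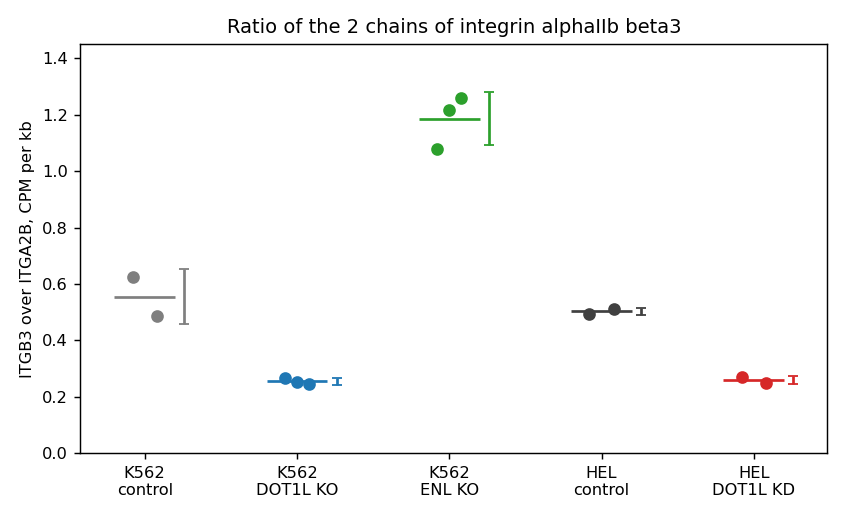
Ratio of ITGB3 to ITGA2B, each as CPM per kilobase, in every library, with the mean of each group as a line and 1 SD as a bar. DOT1L-depleted libraries of both lines lie between 0.245 and 0.271, the controls of both lines between 0.486 and 0.625, and the ENL KO between 1.08 and 1.26.

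The von Willebrand factor receptor was measurable in HEL and not in K562. GP1BA (chromosome 17, 4932275 to 4935030, plus strand), the chain that holds the binding site, was at 42.4 and 47.6 CPM in the HEL control and at 67.8 and 61.7 CPM in the KD. Its KD libraries were both above the controls, 1.44-fold in the mean (log2 fold change 0.53, SE 0.063, edgeR adjusted p 5.04e-10), which made it the single gene of the 10 to rise in HEL. GP9 (chromosome 3, 129060767 to 129062411, plus strand), which helps carry the complex to the surface, went the other way, from 192 and 171 CPM to 132 and 135 CPM, the control being 1.36-fold higher (-0.44, SE 0.043, edgeR adjusted p 1.21e-12). The ratio of GP9 to GP1BA, each per kilobase, was 11.5 ± 1.88 in the control and 5.84 ± 0.486 in the KD (SD, n = 2 each). GP5, a further chain of the complex, also fell (-0.73, SE 0.0890, edgeR adjusted p 6.91e-10).

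GP1BB, the chain that is disulfide-linked to GP1BA, was listed at 0 in all 12 libraries. Its exons on chromosome 22 (19723543 to 19724774, plus strand) lie inside the read-through gene SEPT5-GP1BB, and how reads shared by overlapping genes were counted is not given in the sources used here, so this 0 cannot be read as absence of its mRNA. SEPT5-GP1BB itself, looked up after the 0 was seen, was at 13.1 and 10.6 CPM in the K562 control and 34.9, 30.7 and 36.3 CPM in the DOT1L KO, a rise of 1.52 (SE 0.144, edgeR adjusted p 1.27e-06). Its level in the ENL KO was 17.9, 12.4 and 13.7 CPM (0.31, SE 0.151, edgeR adjusted p 0.116). In HEL it had 1 count in 1 library and 0 in the other 3.

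GP6 (chromosome 19, 55013707 to 55038264, minus strand), the collagen receptor, was at 0.418 and 0.520 CPM in the K562 control, 0.681, 0.541 and 0.521 CPM in the DOT1L KO and 0.580, 0.389 and 0.261 CPM in the ENL KO. The DOT1L KO libraries all lay above the controls, the lowest only just, and the ENL KO libraries overlapped them, at 4 to 16 counts each. Its log2 fold change was 0.30 in the DOT1L KO (SE 0.397, edgeR adjusted p 0.560) and -0.15 in the ENL KO (SE 0.438, edgeR adjusted p 0.819), and no difference was detectable at this depth. In HEL all 4 libraries were at 0, while FCER1G, the signalling partner of GP6, was at 36.1 CPM in the control and 35.1 CPM in the KD (-0.04, SE 0.0773, edgeR adjusted p 0.691). As GP6 is listed on 10 sequences, its 0 in HEL cannot be read as absence of its mRNA.

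The chemokines of the alpha granule were the genes that fell most in HEL. PF4 (platelet factor 4; chromosome 4, 73980825 to 73982124, minus strand) was at 18.8 and 18.3 CPM in the control and at 5.41 and 4.88 CPM in the KD. PPBP (the precursor of beta-thromboglobulin; chromosome 4, 73986439 to 73988190, minus strand) was at 11.5 and 11.7 CPM in the control and at 2.70 and 3.33 CPM in the KD. The controls were thus 3.61-fold higher for PF4 (log2 fold change -1.85, SE 0.138, edgeR adjusted p 9.20e-17) and 3.84-fold higher for PPBP (-1.94, SE 0.178, edgeR adjusted p 1.28e-13). Among the 12635 genes tested, PPBP ranked 20 and PF4 27 from the most negative log2 fold change. The ratio of PF4 to PPBP, each per kilobase, was 1.97 ± 0.0527 in the control and 2.13 ± 0.467 in the KD (SD, n = 2 each), a difference smaller than the spread of the KD libraries.

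PF4 and PPBP are neighbours, 4.31 kb apart, in a cluster of CXC chemokine genes. The cluster is taken here as a fixed list of 9 other genes, the growth factor genes EREG and AREG among them. Of the 9 other genes of this cluster, 5 were tested in HEL, and 3 of them fell and none rose, a share called near the 55.0% of all genes. These were EREG (-1.36, SE 0.0983), which encodes the epidermal growth factor receptor ligand epiregulin, and the neutrophil attractants CXCL2 (-1.03, SE 0.278) and CXCL3 (-0.89, SE 0.274). CXCL8 (0.43, SE 0.231, edgeR adjusted p 0.111) and AREG (-0.10, SE 0.272, edgeR adjusted p 0.778) were not past the threshold. In K562, where PF4 and PPBP were at the floor, 6 of the 9 were tested. In the DOT1L KO 4 of 6 fell, against 51.1% of all genes called and 24.2% called lower, with EREG at -4.39 (SE 0.153), CXCL8 (interleukin 8) at -3.79 (SE 0.183), AREG at -1.29 (SE 0.187) and CXCL3 at -0.89 (SE 0.195). In the ENL KO all 6 fell, against 41.0% called and 22.2% called lower, among them CXCL8 by 3.19, CXCL1 by 2.23, CXCL2 by 2.11 and CXCL3 by 1.57. No gene of the cluster was called higher in any of these comparisons with a control.

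**Figure D4:**
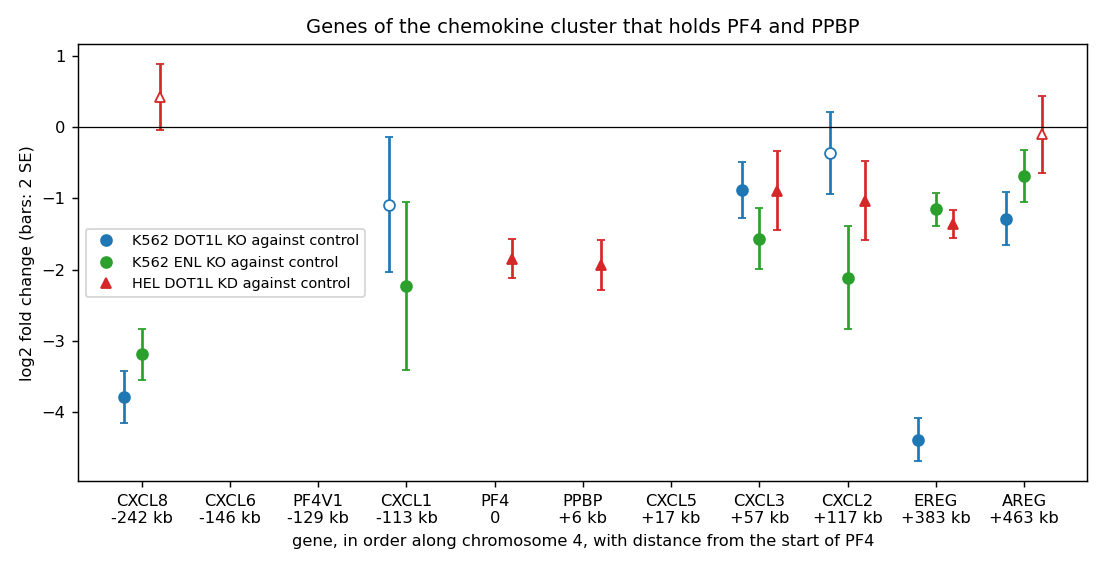
Log2 fold change, with bars of 2 SE, of the tested genes of the chromosome 4 cluster that holds PF4 and PPBP, in their order along the chromosome and with the distance from the start of PF4 in kb. Filled symbols are past an adjusted p of 0.05, and all filled symbols lie below 0.

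VWF (chromosome 12, 5948874 to 6124675, minus strand), the ligand of the glycoprotein Ib complex, was near the floor everywhere. It had 0 counts in both K562 control libraries and in all 3 ENL KO libraries, and 6, 9 and 5 counts in the DOT1L KO, where its mean of 0.271 CPM was at least 1.93-fold higher than the control floor of 3 counts per library. Every DOT1L KO library was thus above every other K562 library. VWF did not pass the filter on low counts. With no filter its adjusted p in the DOT1L KO was 0.00578 in edgeR's quasi-likelihood test and 0.0261 in DESeq2. In HEL it had 12 and 10 counts in the control and 4 and 3 in the KD, with an unfiltered log2 fold change of -1.61 (edgeR adjusted p 0.0420), a call not made by DESeq2 (-1.65, SE 0.994), which gave it no adjusted p. Part of VWF has a near-identical pseudogene copy, so the source of so few reads is uncertain.

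THBS1 (chromosome 15, 39581079 to 39598921, plus strand), the adhesive glycoprotein released from alpha granules, made the largest change among those of the 10 genes that passed the filter. It was at 0.279 and 0.568 CPM (6 and 12 counts) in the K562 control, at 0.531, 0.438 and 0.456 CPM (11, 9 and 7 counts) in the ENL KO, and at 17.9, 16.2 and 14.6 CPM (394, 479 and 309 counts) in the DOT1L KO. The DOT1L KO stood apart from all other K562 libraries, while the ENL KO values lay between those of the controls. The mean was 38.4-fold higher in the DOT1L KO than in the control (log2 fold change 5.25, SE 0.220, edgeR adjusted p 4.75e-10). It ranked 135 from the top of all 14301 genes tested. With few control counts its size depended on the control library, with a log2 fold change of 4.82 without control replicate 1 and 5.83 without control replicate 2. In the ENL KO the log2 fold change was 0.17 (SE 0.410, edgeR adjusted p 0.777), and the knockouts differed directly by 5.07 (SE 0.189, edgeR adjusted p 5.63e-11). In HEL, THBS1 went from 121 and 125 CPM in the control to 60.4 and 49.4 CPM in the KD, the control being 2.24-fold higher (-1.16, SE 0.056, edgeR adjusted p 2.44e-24).

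PLEK (chromosome 2, 68365190 to 68397453, plus strand), the kinase C substrate of the platelet and of other blood cells, had the highest level per kilobase of the 10 genes in the HEL control. It was at 1927 and 1974 CPM there and at 936 and 917 CPM in the KD, so the control was 2.11-fold higher (log2 fold change -1.07, SE 0.027, edgeR adjusted p 3.33e-36). In the KD its level per kilobase, 325 ± 4.80, was below that of ITGA2B, 351 ± 8.09 CPM per kilobase (SD, n = 2 each). In K562 it had 1 to 10 counts per library, the groups overlapped, and it did not pass the filter.

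For the 3 genes tested in both lines, a joint fit asked whether the change on DOT1L depletion differed between HEL and K562. All 3 were past the threshold, each with the lower value in HEL. Without that restriction, all 10 genes entered the joint fit and 4 were past the threshold, each lower in HEL. This stands against 38.9% of all 15367 genes in that fit (19.8% higher and 19.1% lower in HEL). The log2 fold change in HEL minus that in K562 was -2.43 for ITGA2B (edgeR adjusted p 1.36e-12), -2.30 for ITGB3 (edgeR adjusted p 1.98e-12) and -6.39 for THBS1 (edgeR adjusted p 9.09e-15). The other gene past the threshold in the joint fit was VWF. Its value rests on the 0 counts of the K562 controls and is not given as a size. The lines also differ in how DOT1L was depleted, in medium and in what was counted, and these cannot be told apart in this contrast.

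The other genes of the same machinery were taken from lists named by function, and their counts stand beside the shares of all genes given above. Of 31 other membrane proteins and receptors of platelets, 17 passed the filter in the K562 table and 25 in the HEL table. In the DOT1L KO 7 rose and 5 fell (median log2 fold change 0.00), and in the ENL KO 9 rose and 3 fell (0.22). CD9, a tetraspanin that lies 75.0 kb from VWF, rose from 0.611 to 7.11 CPM in the DOT1L KO (3.53, SE 0.240), fell in the ENL KO (-2.46, SE 0.529) and rose in HEL (1.30, SE 0.0910). CD226, an adhesion receptor, rose in both knockouts, by 1.79 in the DOT1L KO and by 3.29 in the ENL KO, and ESAM, a junction protein, by 2.63 and 2.25. In HEL 10 rose and 11 fell (-0.04). SELP, the P-selectin of the granule membrane, fell from 151 to 70.0 CPM (-1.11, SE 0.0466). ITGA2, the alpha chain of a collagen-binding integrin, fell by 0.86.

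Of 27 other granule proteins, 22 passed the filter in the K562 table and 16 in the HEL table. Among them 12 rose and 8 fell in the DOT1L KO (median log2 fold change 0.34). SERPINE2, MMRN1 (multimerin of the alpha granule), VEGFC and IGFBP2 had control means under the floor, from 0.0465 to 0.0942 CPM, and DOT1L KO means of 8.53, 3.02, 2.70 and 1.77 CPM, each past the threshold. With so few control counts they passed the filter only through libraries where they were higher, so only a rise could be called. They are among the 12 that rose. Of the 22 granule genes, 8 rose and 6 fell in the ENL KO (0.23). FN1, the fibronectin gene, fell there from 802 to 35.6 CPM (-4.49, SE 0.0752), and SPARC rose from 19.3 to 74.1 CPM (1.94, SE 0.0780), and further, to 161 CPM, in the DOT1L KO (3.06, SE 0.0788). In HEL 5 rose and 9 fell (-0.26), among them ANGPT1 (-1.87, SE 0.0520) and SERPINE2 (-1.08, SE 0.0724), while PDGFB (1.28, SE 0.226) and EGF (1.01, SE 0.210) rose. SERPINE2, like THBS1, was thus higher in the DOT1L KO and lower in the HEL KD. For SERPINE2 only a rise could be called in the DOT1L KO.

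Of 26 genes for granule formation and release, 24 were tested in each line. In the DOT1L KO 5 rose and 11 fell (median log2 fold change -0.14), in the ENL KO 5 rose and 4 fell (0.11), and in HEL 5 rose and 11 fell (-0.11). The split in the DOT1L KO depended on the scaling, with 5 higher and 5 lower by library size alone, and so did that in HEL, with 8 higher and 10 lower by upper-quartile factors and 7 and 11 by library size. RAB27B, a small GTPase of platelet granule secretion, rose in both knockouts (1.12, SE 0.159, and 2.79, SE 0.156) and fell in HEL (-0.69, SE 0.0327). Its relative RAB27A went the other way in each comparison (-1.10, -0.59 and 0.68). In HEL the secretion genes STXBP5 (-1.19, SE 0.0344) and STX11 (-1.14, SE 0.0958) fell as well.

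Of 37 genes of integrin and platelet signalling and of the cytoskeleton, 34 passed the filter in the K562 table and 35 in the HEL table. Of these, 14 rose and 9 fell in the DOT1L KO (median log2 fold change 0.05), in the ENL KO 12 rose and 6 fell (0.09), and in HEL 6 rose and 21 fell (-0.30). With upper-quartile factors the HEL split was 11 and 19. CALD1, at 0.0938 CPM in the K562 control and 2.78 CPM in the DOT1L KO, is among the 14 that rose. With so few control counts, only a rise could be called for it. TUBB1, the platelet tubulin, rose from 15.8 to 112 CPM in the ENL KO (2.83, SE 0.0792) and by less in the DOT1L KO, to 27.7 CPM (0.81, SE 0.0792), and the knockouts differed (-2.02, SE 0.0634). In HEL it fell by 0.57. Like ITGB3, TUBB1 was higher in both knockouts, highest in the ENL KO, and lower in HEL. FYB1, an adaptor of integrin signalling, rose in the DOT1L KO from 16.7 to 80.9 CPM (2.28, SE 0.0878). ALOX12, the platelet lipoxygenase, rose by 2.72 in the DOT1L KO, and VCL, the vinculin gene, fell in HEL by 0.74.

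Of 27 megakaryocyte transcription factors, 25 passed the filter in the K562 table and all 27 in the HEL table. In the DOT1L KO 10 rose and 8 fell (median log2 fold change -0.04), in the ENL KO 8 rose and 6 fell (-0.08), and in HEL 8 rose and 12 fell (-0.10). By upper-quartile factors the ENL KO split was 7 and 8. GATA1 rose from 273 to 414 CPM in the DOT1L KO (0.60, SE 0.0610) and to 387 CPM in the ENL KO (0.50, SE 0.0610), while GATA2 fell in both (-0.70, SE 0.0762, and -0.67, SE 0.0764). RUNX1 rose from 83.5 to 180 CPM in the DOT1L KO (1.11, SE 0.0720) and to 128 CPM in the ENL KO (0.62, SE 0.0717). In HEL, RUNX1 (-0.24, SE 0.0317), GATA2 (-0.26, SE 0.0290) and FLI1 (-0.17, SE 0.0302) fell by little, and GATA1 was at 304 CPM in the control and 293 CPM in the KD (-0.06, SE 0.0334, edgeR adjusted p 0.144). MEIS1 rose in both knockouts (1.96 and 1.75) and fell in HEL (-0.91). These genes are named as known regulators, and their part in the changes of the 10 genes was not tested.

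**Figure D5:**
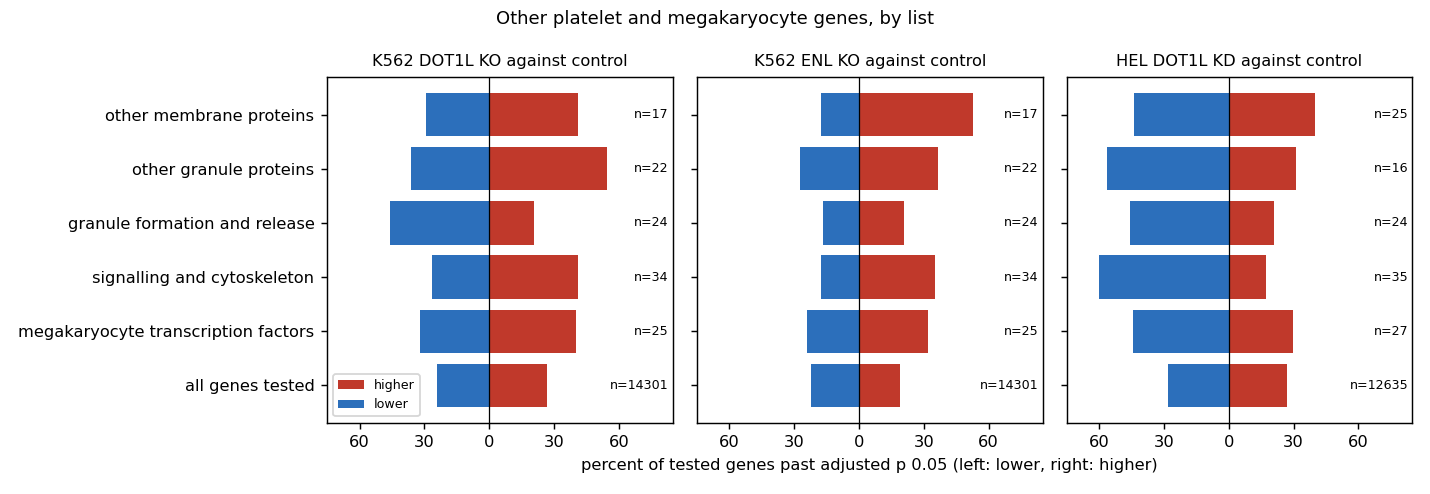
Percent of the tested genes of 5 lists of other platelet and megakaryocyte genes that were higher (right, red) or lower (left, blue) at an adjusted p of 0.05, with all genes tested in the bottom row and the number tested at the right. Signalling and cytoskeleton genes have a longer bar to the left in HEL than in either K562 knockout. In HEL 21 of 35 were lower, or 19 with upper-quartile factors, and in the knockouts 9 and 6 of 34 were lower.

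Markers of other cell states were followed beside the 10 genes, and their part in the results was not tested. Of the 15 erythroid markers, 14 rose and 1 fell in the DOT1L KO, 9 rose and 2 fell in the ENL KO, and 13 rose and 1 fell in the HEL KD. Their summed level was 6937 to 7523 CPM in the K562 control, 11121 to 11806 in the DOT1L KO and 9072 to 9333 in the ENL KO, and 6693 to 6798 in the HEL control and 9583 to 10243 in the KD. Most erythroid markers thus rose in each depleted group. Of the 10 platelet genes, 3 of 4 tested rose in the DOT1L KO and 2 of 4 in the ENL KO. In HEL, 1 rose and 7 fell of 8 tested. The 12 other megakaryocyte markers summed to 383 to 391 CPM in the K562 control, 440 to 528 in the DOT1L KO, 518 to 522 in the ENL KO, 1387 to 1406 in the HEL control and 1397 to 1415 in the KD. Of the 5 tested in K562, 4 rose and 1 fell in the DOT1L KO and 2 rose and 1 fell in the ENL KO, and of the 10 tested in HEL 5 rose and 5 fell. Among the 4 that rose in the DOT1L KO is MMRN1, for which only a rise could be called, as stated above. All counts of this paragraph stand beside the shares of all genes given above.

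THBS1 and PLEK are also made by monocytes, and THBS1 and VWF by endothelial cells and THBS1 by fibroblasts. The 10 monocyte and granulocyte markers summed to 90.4 to 90.8 CPM in the K562 control and 357 to 389 CPM in the DOT1L KO, with LYZ at 310 CPM of the latter and ELANE at 0. In the ENL KO they summed to 67.0 to 73.1 CPM, and in HEL to 158 to 161 in the control and 137 to 139 in the KD. The 9 endothelial markers summed to 341 to 371 CPM in the K562 control, 116 to 134 in the DOT1L KO and 308 to 356 in the ENL KO, with CDH5, CLDN5 and EMCN at 0 in all 3 groups, and to 707 to 732 in the HEL control and 987 to 995 in the KD. The endothelial sum in K562 is mostly EGFL7, which fell in the DOT1L KO (-1.84), while TEK and TIE1 rose, to 5.83 and 2.47 CPM. By gene, 2 endothelial markers rose and 1 fell of 4 tested in the DOT1L KO (median log2 fold change 1.47), 0 of 4 were past the threshold in the ENL KO (-0.15), and 3 rose and 3 fell of 8 in HEL (0.02). More than 3 counts in every library were found for only 2 of the 9 endothelial markers in the K562 control, and for 4 in the DOT1L KO. For tested genes at the control floor only a rise could be called, and the median of 1.47 carries this limit. Of the monocyte and granulocyte markers, 3 rose and 1 fell of 6 tested in the DOT1L KO (0.45), 1 rose and 4 fell in the ENL KO (-1.29), and 1 rose and 2 fell of 4 in HEL (-0.14). The 6 fibroblast markers summed to 80.7 to 83.6 CPM in the K562 control, 132 to 138 in the DOT1L KO and 85.1 to 90.5 in the ENL KO, with COL1A1 up (3.43) and COL1A2 down (-5.18) in the DOT1L KO, and to at most 5.27 CPM in HEL. Of 4 fibroblast markers tested in K562, 2 rose and 2 fell in the DOT1L KO, and 1 rose and 1 fell in the ENL KO. These counts, each on few genes, stand beside the shares of all genes given above. The part of these markers in the changes of THBS1, VWF and PLEK was not tested.

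Genes near the 10 were called about as often as all genes. Within 100 kb of any of them, 17 of 32 neighbours tested were called in the DOT1L KO (53.1%, against 51.1% of all genes), 14 of 32 in the ENL KO (43.8%, against 41.0%) and 14 of 27 in HEL (51.9%, against 55.0%). RUNDC3A, 53.5 kb from ITGA2B, rose in the DOT1L KO (3.43, SE 0.418), in the ENL KO (2.41, SE 0.487) and in HEL (2.88, SE 0.545), where ITGA2B went slightly down. GPATCH8, the nearest tested gene at 5.68 kb, was at 0.04 (SE 0.0543, edgeR adjusted p 0.527) in the DOT1L KO and at -0.11 (SE 0.0546, edgeR adjusted p 0.124) in the ENL KO, and rose in HEL (0.15, SE 0.0449, edgeR adjusted p 0.00289). MYL4, a myosin light chain gene 30.2 kb from ITGB3, rose in the DOT1L KO (1.15, SE 0.0833), in the ENL KO (0.27, SE 0.0829) and in HEL (0.12, SE 0.0325), where ITGB3 fell. Other neighbours moved with their gene in some comparisons. FAM171A2, 8.31 kb from ITGA2B, rose in the DOT1L KO (0.49, SE 0.149) and fell in HEL (-1.40, SE 0.228). CDC27, 64.5 kb from ITGB3, rose in the ENL KO (0.27, SE 0.0764) and fell in HEL (-0.26, SE 0.0359). ISY1, 65.0 kb from GP9, fell in HEL (-0.44, SE 0.101). The neighbours named here are only part of those called.

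Genes with the most similar pattern were found by the Euclidean distance of their log2 fold changes in the 3 comparisons with a control, among 2092 genes tested in both tables that changed by at least 1 in any of them. For ITGA2B they were RNASE6 (distance 0.273), the heme synthesis gene ALAS2 (0.440) and PATL2 (0.445). For ITGB3 they were MLC1 (0.515), RAB27B (0.538) and MDM1 (0.625). For THBS1 they were RASGRP3 (0.283), CTTNBP2 (0.433) and KLF12 (0.615), all raised in the DOT1L KO by over 5 on the log2 scale, from 5.04 to 5.27. The K562 comparisons share their controls, so 2 of the 3 coordinates of these distances are not independent.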

How the data were processed

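Messenger RNA was sequenced from dUTP libraries of polyadenylated RNA, per the labels' protocols. The authors deposited raw counts per gene with exon positions and exonic length, per the file headers. The deposited tables are named as fragment counts for K562 and read counts for HEL. The submitters' processing notes name fastp 0.13.1, HISAT2 2.1.0, Bowtie2 2.3.4.1, deepTools and featureCounts 1.6.1, and the builds hg38 and hg19, with no role given. The tables' positions overlap those of RefSeq on GRCh38, which is the build used here. Use of strand, and treatment of multi-mapping reads, are not given in the sources used here.

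Of 74 samples, 13 were RNA-seq libraries. The other 61 were not analysed here. For K562, control replicates 2 and 3 had identical counts throughout and were used as 1 library, which left 12. All other replicate pairs differed by more than sampling noise (chi-square divided by its degrees of freedom 4.05 to 9.64 in K562 and 1.31 to 1.45 in HEL).

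Genes were kept with filterByExpr (minimum count 10, total 15), scaled with TMM factors and tested with edgeR 4.0.16 (quasi-likelihood test, R 4.3.3, limma 3.58.1), 1 fit for K562, 1 for HEL and 1 joint fit of 9 libraries for the interaction. P-values were adjusted by Benjamini-Hochberg over all genes tested, with a threshold of 0.05. Each SE was obtained as the log2 fold change over the square root of F. CPM per kilobase used the deposited exonic length. The scripts were tested on simulated data. Alternatives were RLE, upper-quartile and library-size scaling, no filter, DESeq2 1.42.0, the replicate block and leaving out each library.

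The 10 genes, the lists and the rules were chosen with earlier results of these data known. Besides the 10 genes and the targeted genes, the rule named up to 4 genes per list and comparison, by absolute log2 fold change, among those past the threshold, with at least 1 CPM in a group mean and no overlap of groups, together with the tested genes of the PF4 cluster, the neighbours called with a gene, and the 3 most similar genes. Not every gene that the rule named is given in the text. Those left out include the transcription factors HHEX, TAL1, GFI1, GFI1B, MECOM and MYB. GP5, ITGA2, SEPT5-GP1BB, GATA1, GATA2, FLI1, GPATCH8 and a few repeats of a named gene in another comparison were named outside this rule, after their values were seen. The result of 1 gene is not reported here.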

Additional observations from a re-analysis of the deposited data

Results flagged for a closer look

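For 3 genes the effect of DOT1L depletion differed between the cell lines, by a test of the difference itself (the interaction in the joint edgeR quasi-likelihood fit of 9 libraries, adjusted by Benjamini-Hochberg over 15367 genes). The log2 fold change in the HEL KD minus that in the K562 DOT1L KO was -2.43 for ITGA2B (adjusted p 1.36e-12), -2.30 for ITGB3 (adjusted p 1.98e-12) and -6.39 for THBS1 (adjusted p 9.09e-15). In K562 every DOT1L KO library was above every control for these genes, and in HEL every KD library was below every control. Knockdown against knockout, culture medium and the counting of reads or fragments differ along with the cell line.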

How the results depend on the processing

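A total of 444 recomputed values were rated as unchanged. For a fold change this meant the same direction and side of the threshold, and for a count of called genes only a limited change. With 1 library left out, the genes called over all genes still ranged from 5664 to 7583 in the DOT1L KO, in place of 7305. In the ENL KO they ranged from 4094 to 5872, in place of 5863. The exceptions were the decrease of ITGA2B in HEL, at -0.02 with upper-quartile factors (edgeR adjusted p 0.512) and -0.07 without HEL KD replicate 1 (edgeR adjusted p 0.142), and the count of all genes called in HEL, which was 6951 with edgeR and 4373 with DESeq2. Values past no threshold turned their sign for THBS1 in the ENL KO, from 0.17 to -0.25 without K562 control replicate 1, and for GP6 in the ENL KO, from -0.15 to 0.014 without control replicate 2 and 0.048 without ENL KO replicate 3. Leaving out each library in turn, these values ranged from -0.25 to 0.76 for THBS1 and from -0.48 to 0.048 for GP6. With upper-quartile factors the called genes of HEL were 4412 higher and 2768 lower, in place of 3411 and 3540, and 6 of the 10 genes were lower in place of 7. No scaling moved the median of all genes by more than 0.0734 on the log2 scale. Leaving out each library in turn, 3 of the 10 genes were called in the DOT1L KO, 2 in the ENL KO, 3 between the knockouts and 7 to 8 in HEL. Same-numbered replicates deviated together by 0.0531 to 0.221 in K562 and 0.000442 in HEL (Pearson's r across genes). Differently numbered K562 replicates of different groups lay between -0.158 and 0.0881. The labels state no pairs, and the main fits had no block. With the replicate block the counts of called genes among the 10 were 3, 2, 3 and 8 in the 4 comparisons, as without it. Over all genes, the block raised the calls of the 3 K562 comparisons from 7305, 5863 and 8606 to 8340, 7021 and 9605. Depth limits GP1BA, GP9, PF4, PPBP, VWF and PLEK in K562 and GP6 and VWF in HEL, which did not pass the filter on low counts.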
